A study of Mus musculus with 4 samples.

Results

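The barcodes described here were the haemoglobin-dominated low-gene barcodes of a Drop-seq experiment on mouse spleen, labelled reticulocytes. A barcode was selected on its own measured values: fewer than 300 detected genes, at least 50 unique molecular identifiers (UMIs, each counting 1 captured transcript), and at least 50% of its UMIs in the 4 adult haemoglobin genes Hba-a1, Hba-a2, Hbb-bs and Hbb-bt. These limits chose 347 of 3198 barcodes. The haemoglobin share and the number of genes are therefore descriptions of the choice and not findings.

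All mice were BALB/c and had been given 10000 BCL1 cells, which grow as a B cell lymphoma. On day 13 the spleens were collected and dissociated with Liberase. The 4 libraries came from mice given isotype control, anti-CD20, which binds a B cell surface protein, agonistic anti-CD27, which binds a co-stimulatory receptor of T and NK cells, or the combination of both antibodies. Dosing days in the labels were day 4 for anti-CD20 and days 5 to 8 for anti-CD27, whereas the single-cell methods of the study name earlier days. Each treatment was 1 library, the number of mice behind it is not given, and the isotype control barcodes carry the name PBS in the table. Treatment and library could therefore not be told apart, and no test was made between them. Intervals are at 95% and cover counting error only.

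Red cells arise from erythroblasts, which divide, fill with haemoglobin and expel the nucleus. The resulting reticulocyte still holds RNA, ribosomes and mitochondria, and it clears them by ubiquitin-dependent breakdown and autophagy on its way to a mature red cell. Adult haemoglobin pairs alpha chains with beta chains, each holding a haem group. In the mouse the spleen, beside filtering blood, is a site of red cell production that expands under stress.

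The 4 haemoglobin genes are near-identical pairs, which decides how far their counts can be read apart. Hba-a1 (chromosome 11, 32283511 to 32284465) and Hba-a2 (chromosome 11, 32296489 to 32297298) lie on the plus strand of GRCm38. Their coding sequences differed at 1 of 429 bases. Hbb-bs (chromosome 7, 103826534 to 103828096) and Hbb-bt (chromosome 7, 103812524 to 103813996) lie on the minus strand, and their coding sequences differed at 1 of 444 bases. The mm10 genome comes from a strain with the Hbb-bs and Hbb-bt pair, while BALB/c carries another haplotype of the beta globin locus. The split of beta counts between Hbb-bs and Hbb-bt, and any count spilled onto related beta-like genes, was therefore uncertain. The sums over the alpha pair and over the beta pair were used instead. Whether reads fitting both genes of a pair were counted is not given in the sources used here. The balance of alpha and beta is therefore one of counts.

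The 120 bases upstream of each RefSeq start (GRCm38.p6, written 5′ to 3′ on the gene's strand) are shown because these 4 genes define the barcodes and are told apart by so few coding bases. Capitals mark matches on either strand to 3 short words. The first is CACCC, a word bound by Klf1 and its relatives. The second is CCAAT, which many promoters hold and which appears as ATTGG where it lies on the other strand. The third is TATAA, found in the core of some promoters.
Hba-a1 (chr11:32283552-32283671): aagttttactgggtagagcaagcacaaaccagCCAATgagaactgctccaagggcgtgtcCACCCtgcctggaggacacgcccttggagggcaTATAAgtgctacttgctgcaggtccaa
Hba-a2 (chr11:32296372-32296491): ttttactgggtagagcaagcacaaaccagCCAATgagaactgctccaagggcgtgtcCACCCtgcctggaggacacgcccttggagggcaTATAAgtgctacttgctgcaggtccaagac
Hbb-bs (chr7:103827929-103828048): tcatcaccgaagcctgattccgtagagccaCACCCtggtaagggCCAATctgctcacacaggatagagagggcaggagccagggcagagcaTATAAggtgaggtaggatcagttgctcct
Hbb-bt (chr7:103813924-103814043): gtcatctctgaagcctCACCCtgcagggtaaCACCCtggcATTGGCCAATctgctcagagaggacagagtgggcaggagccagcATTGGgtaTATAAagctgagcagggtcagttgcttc
The RefSeq starts differ from those of the GENCODE genes given above: the Hba-a1 and Hbb-bs windows lie inside the longer GENCODE genes, and the other 2 overlap theirs in part. The alpha windows shared an unbroken run of 117 bases, while the longest run shared by the beta windows was 14 bases. Each window held at least 1 match to each of the 3 words, and Hbb-bt held 2 CACCC and 3 CCAAT matches. Over 32851 mouse promoters cut to the same window, CACCC was found in 31.7%, CCAAT in 21.3% and TATAA in 11.8%. GATAA, found in 10.5% of all windows, was in none of the 4, which speaks only of these letters in these windows.

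The haemoglobin-dominated low-gene barcodes stood apart from the other shallow barcodes of the spleen. Of 1349 barcodes with fewer than 300 genes and at least 50 UMIs, 982 had a haemoglobin share below 10%, 20 lay between 10% and 50%, and 347 were at or above 50%. Within the 347, 315 were at or above 80%. The 5 members nearest to the haemoglobin limit had shares of 51.9, 52.1, 54.1, 57.4 and 58.0%, and the 5 barcodes just below it had 49.9, 45.5, 42.1, 39.1 and 31.2%. At the other limit, the members with the most genes had 294, 290, 281, 267 and 266, and the nearest haemoglobin-dominated barcodes above it had 333, 349, 386, 430 and 430. The minimum of 50 UMIs excluded no haemoglobin-dominated barcode, because the shallowest member held 185 UMIs.

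**Figure D1:**
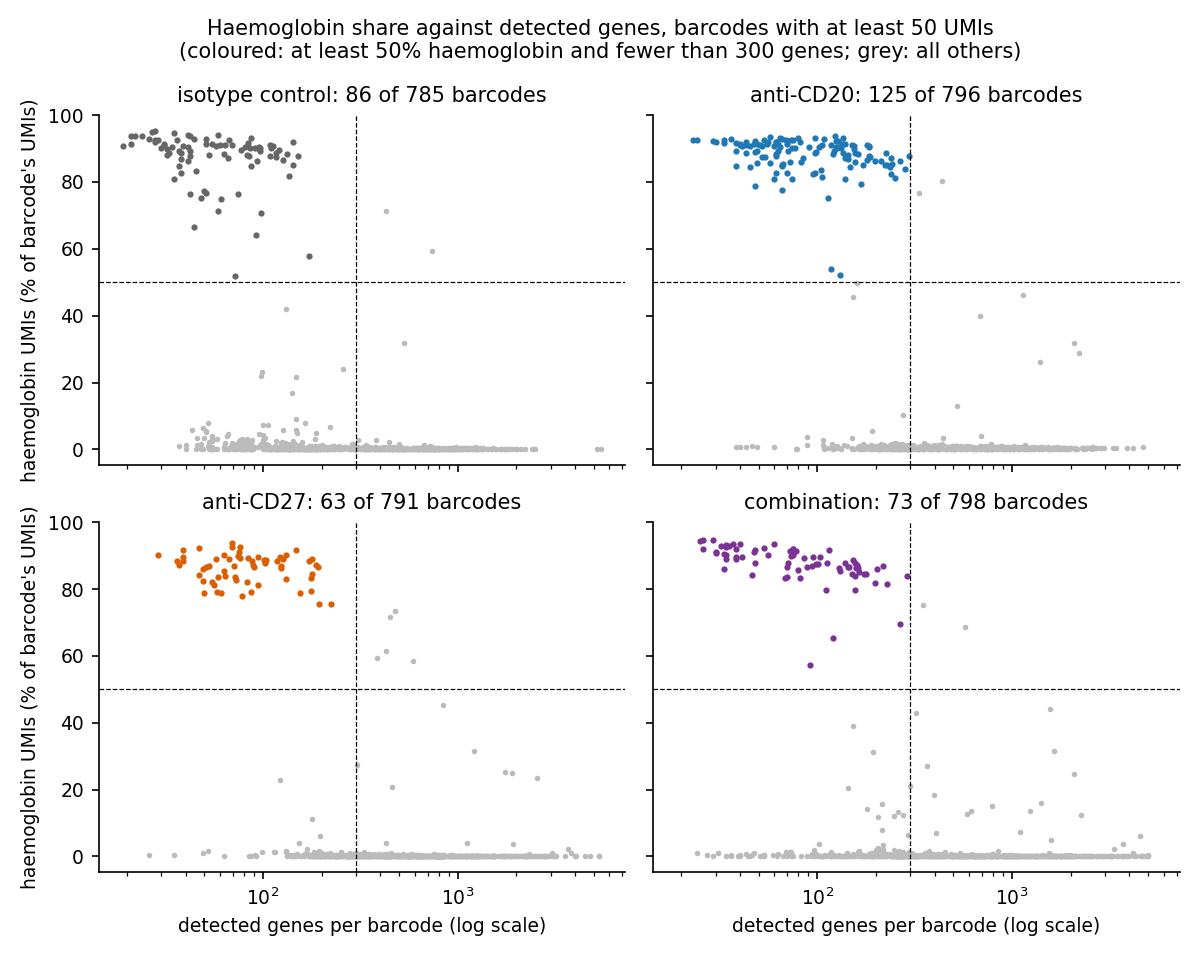
Haemoglobin UMIs as a percent of each barcode's UMIs (y) against its detected genes (x, log scale) in the 4 libraries, for barcodes with at least 50 UMIs; dashed lines mark 50% and 300 genes. Few points lie between the band above 80% and the barcodes near 0%.

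A member held few genes for its depth. The median was 1040 UMIs (range 185 to 4687) and 74 genes (range 19 to 294). By library, the median UMI number was 672.5 in the isotype control, 1213 in anti-CD20, 1206 in anti-CD27 and 1119 in the combination. The isotype control members were thus the shallowest. The barcodes made up 9.37% of all UMIs in the table but held 85.6% of all UMIs of the 4 haemoglobin genes. Leaving those genes out, 8242, 22227, 9896 and 13005 UMIs remained in the 4 libraries in the order above (53370 in all), and these other UMIs carry the gene comparisons below.

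No member barcode occurred in more than 1 library. Within a library, however, 80 pairs of members differed at 1 base only, and in all 80 pairs this was the last base. These pairs formed 25 families holding 73 members. Without the shallower barcode of each such pair, 299 members remained, so that barcodes may outnumber cells.

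The share of members differed between the libraries. In the isotype control 86 of 785 barcodes with at least 50 UMIs were members (10.96%, exact Clopper-Pearson interval 8.86 to 13.4). In anti-CD20 it was 125 of 796 (15.7%, 13.2 to 18.4), in anti-CD27 63 of 791 (7.96%, 6.17 to 10.1) and in the combination 73 of 798 (9.15%, 7.24 to 11.4). Anti-CD20 therefore held the highest share and anti-CD27 the lowest, and the intervals of isotype control, anti-CD27 and the combination overlapped. The interval of anti-CD20 lay above those of anti-CD27 and the combination but narrowly overlapped that of the isotype control (from 13.2 against up to 13.4).

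The combination minus anti-CD20 was -6.56 percentage points (Newcombe interval -9.80 to -3.33). Anti-CD27 minus the isotype control was -2.99 points (-5.91 to -0.0951), and with a haemoglobin limit of 70% it was -2.48 points with an interval that held 0 (-5.36 to 0.382). Over low-gene barcodes only, the combination held 21.7% and anti-CD20 43.1% (difference -21.4 points, -28.4 to -14.1). On that base anti-CD27 held 22.5% and the isotype control 19.4%, a difference of 3.09 points in the other direction (-2.89 to 9.34). The order of anti-CD27 and the isotype control thus depended on which barcodes were counted. Each library had been limited to about 800 barcodes (799 or 800 in the table), so that a share is relative to whatever else the library held and is no count of red cells per spleen. Whether red cells were lysed before encapsulation is not given in the sources used here.

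UMIs of the beta pair outnumbered those of the alpha pair in every library. The alpha pair made up 38.9% of haemoglobin UMIs in the isotype control (exact interval 38.6 to 39.3), 40.3% in anti-CD20 (40.1 to 40.6), 36.7% in anti-CD27 (36.3 to 37.1) and 37.3% in the combination (36.9 to 37.6). Both libraries with anti-CD27 were thus below both without it, by more than the counting error of the sums. The spread between barcodes was much wider. Single members ranged from 25.1 to 50.7% in the isotype control (median 38.4), from 30.05 to 46.7% in anti-CD20 (median 40.1), from 22.5 to 47.3% in anti-CD27 (median 37.4) and from 28.8 to 49.4% in the combination (median 36.9), so that the libraries overlapped broadly. Over the members with fewer than 50 genes the alpha share was 37.8%, and in the next classes, from 50, from 100 and from 200 genes up, it was 37.5, 39.3 and 41.1%. Anti-CD20 held 12 of the 18 members with 200 or more genes.

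**Figure D2:**
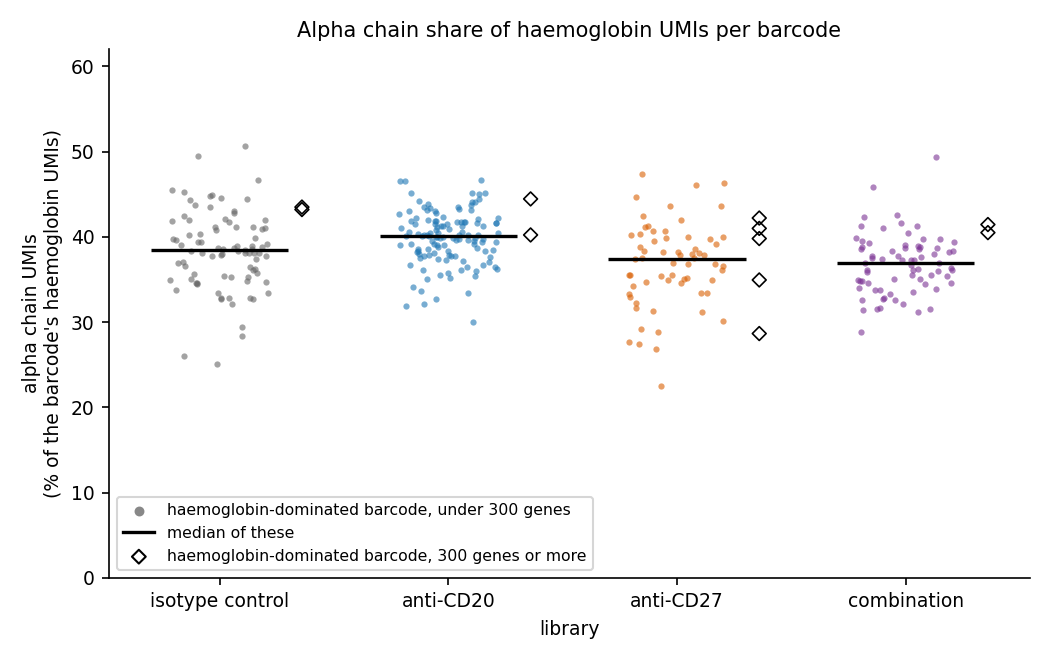
Alpha chain UMIs (Hba-a1 plus Hba-a2) as a percent of haemoglobin UMIs for each barcode (y) in the 4 libraries (x); points are members, bars their medians of 38.4, 40.1, 37.4 and 36.9%, and diamonds the 11 haemoglobin-dominated barcodes with 300 or more genes. The 4 clouds overlap.

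Within the alpha pair, Hba-a1 took 54.1 to 55.3% of the counts in the 4 libraries. Within the beta pair, Hbb-bt took 16.2% in the isotype control, 18.2% in anti-CD20, 18.3% in anti-CD27 and 19.1% in the combination, a wider range, in a split that the haplotype leaves uncertain. The 11 haemoglobin-dominated barcodes with 300 or more genes (2 in the isotype control, 2 in anti-CD20, 5 in anti-CD27 and 2 in the combination) had alpha shares of 43.3, 42.8, 38.9 and 41.0% by library, each above the members of its own library. A further 1191 barcodes had at least 2 UMIs of B cell or of T cell markers, 300 to 3000 genes and under 10% haemoglobin. In these lymphocyte-marker barcodes, which should lack haemoglobin, the 4 genes took 0.260% of UMIs with an alpha share of 18.3%. The limit of 10% bounded their haemoglobin share beforehand.

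Counts also appeared on embryonic globin genes. Hbb-bh1 (1653 UMIs, in 315 of 347 members) and Hbb-y (826 UMIs, in 262 members) encode beta-like chains of the embryo. Per 100 UMIs of the beta pair, Hbb-bh1 had 0.929 in the isotype control, 0.740 in anti-CD20, 0.632 in anti-CD27 and 0.481 in the combination. Hbb-y had 0.458, 0.373, 0.339 and 0.221 in the same order. Both were thus at under 1 count per 100 and stood in the same order of libraries. Their coding sequences matched Hbb-bs at 74.1% (Hbb-bh1) and 74.3% (Hbb-y) of bases. Whether these counts were embryonic transcripts or adult beta transcripts of the BALB/c haplotype placed elsewhere on the reference was not tested.

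Outside haemoglobin and the mitochondrial genes, the UMIs were led by Pabpc1 and by genes of late red cells. Levels are given as CPM, a gene's UMIs as a share of the UMIs outside the 4 haemoglobin genes, scaled to parts per 1e6. The 4 libraries pooled had UMIs of 6153 genes, of which 271 reached 20 UMIs. The 20 leading genes outside the mitochondrial and ribosomal protein genes held 28.7% of the other UMIs. Pabpc1, a poly(A)-binding protein that coats messenger RNA, led with 3922 UMIs (73487 CPM) in 319 of 347 members. It was followed by Hbb-bh1 (1653 UMIs, 30972.5 CPM), Alas2, the first enzyme of haem synthesis in red cells (1479 UMIs, 27712 CPM), and Gpx1, a selenium enzyme that breaks down peroxides (1226 UMIs, 22972 CPM). Among the others were Hbb-y, Mkrn1, Bpgm, Rsad2, Ube2l6, Epb4.1, Ubb, Bnip3l, Apol11b, Car2, Fech, Eif5, Slc25a39, Gda and Malat1.

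To see what set these UMIs apart from those of other shallow barcodes, the members were compared within each library with the 1002 barcodes of fewer than 300 genes and less haemoglobin. A gene was called where it differed at least 2-fold in the same direction in all 4 libraries. Of 2975 genes with at least 20 UMIs, 156 were higher in members (5.24%) and 496 were lower (16.7%). The comparison describes the chosen barcodes and is no test.

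Genes of haem and iron handling were high. All 4 haem synthesis genes that had enough UMIs were called higher, among them Alas2, Urod and Fech, the last of which inserts iron into haem. The whole list of 8 stood at 34401 CPM in members against 377 CPM in the low-gene barcodes with less haemoglobin. Alas2 had 28634 CPM in the isotype control, 27309 in anti-CD20, 25768 in anti-CD27 and 29296 in the combination, so that the 4 libraries lay close together. Of the iron genes 2 of 5 were called, the mitochondrial iron importer Slc25a37 and the iron-sulphur cluster protein Glrx5. The transferrin receptor Tfrc, which erythroblasts carry in quantity, had 4 UMIs in all members (74.9 CPM against 109.8 CPM in the low-gene barcodes with less haemoglobin).

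Membrane and skeleton genes were present in part. Of 8 compared, 5 were called higher, none lower, among them Slc4a1 (the band 3 anion exchanger), Epb4.1 (protein 4.1) and Cd59a (a complement inhibitor). Epb4.1 had 478 UMIs and Slc4a1 121. Rhag, Slc2a1 and Xk were listed with 0 UMIs, which at 3 counts allows up to 56.2 CPM each over all members.

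Genes of protein and organelle clearance were among the most abundant erythroid genes. Of 11 compared, 8 were called higher: the mitophagy receptor Bnip3l, the ubiquitin-conjugating enzymes Ube2o and Ube2l6, the ubiquitin ligase Mkrn1, the autophagy proteins Gabarapl2 and Map1lc3b, Trim10, and the ubiquitin gene Ubb. The list stood at 48979 CPM in members and at 1702 CPM in the low-gene barcodes with less haemoglobin. Mkrn1 (12966 CPM), Ube2l6 (9874 CPM) and Bnip3l (7420 CPM) were each found in over 200 of the 347 members.

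Of 10 antioxidant and metabolic genes, 7 were called higher: Prdx2, Cat and Gpx1, which break down peroxides, the carbonic anhydrase Car2, Bpgm, which makes the haemoglobin effector bisphosphoglycerate, Blvrb and Nt5c3. Of 7 other late erythroid genes 5 were called higher (Isg20, Tmcc2, Dcaf12 and Fam46c among them) and Btg2, a brake on proliferation, was called lower, with 1 UMI in members. Of the regulators only Lmo2 of 3 was called higher, with 36 UMIs. Klf1, a master regulator of erythroid genes, had 3 UMIs.

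Nuclear RNA was low in members. Malat1, a long RNA retained in the nucleus, stood at 4591 CPM in members, at 25895 CPM in the low-gene barcodes with less haemoglobin and at 13048 CPM in the lymphocyte-marker barcodes. It was called lower in members. None of 17 cell cycle genes was called in either direction, and the whole list of 22 had 110 UMIs (2061 CPM, beside 2923 CPM in the low-gene barcodes with less haemoglobin, 2655 CPM in haemoglobin-dominated barcodes with 300 or more genes and 5377 CPM in the lymphocyte-marker barcodes). Ribosomal protein genes (Rpl and Rps) took 1.94% of other UMIs in members, 5.07% in the low-gene barcodes with less haemoglobin and 8.64% in the lymphocyte-marker barcodes. Mitochondrial genes took 13.6% in members, mostly the mitochondrial ribosomal RNA gene mt-Rnr2 (12.7%, 6797 UMIs, the most of any gene outside haemoglobin). They took 20.4% in the low-gene barcodes with less haemoglobin, 3.71% in haemoglobin-dominated barcodes with 300 or more genes and 5.52% in the lymphocyte-marker barcodes. Of 10 listed erythroid markers that the choice had not used, 9 matched and 5 had enough UMIs to be compared. Klf1 and Rhag were among those with too few. Of the 5 compared, 4 were called, Alas2 and Slc4a1 among them, and Tfrc was not. The label of reticulocytes was thus met by late erythroid genes with little nuclear RNA. The counts cannot show whether a barcode came from a whole enucleated cell, and the red cell markers Rhag and Tfrc were at or near 0.

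**Figure D3:**
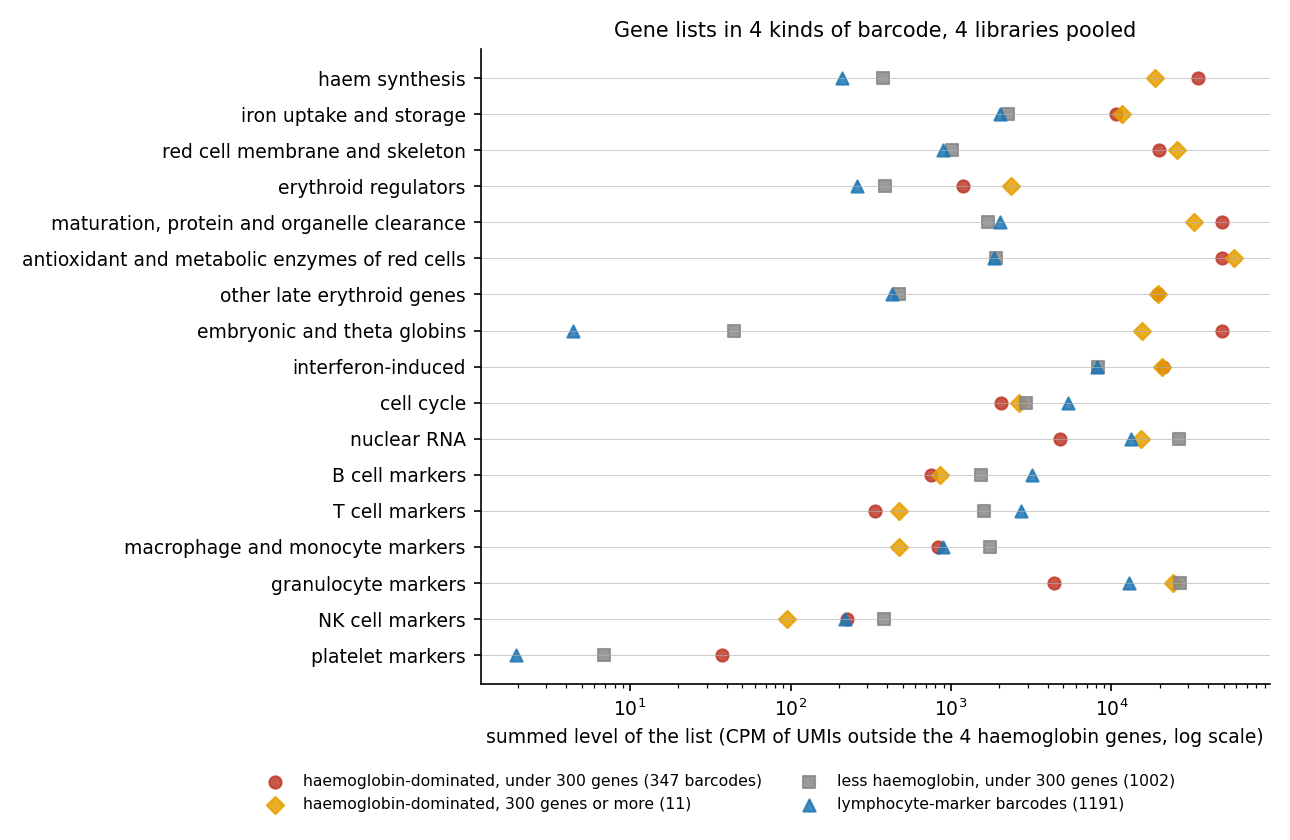
Summed CPM outside haemoglobin (x, log scale) of 17 gene lists in members, in haemoglobin-dominated barcodes with 300 or more genes, in low-gene barcodes with less haemoglobin and in lymphocyte-marker barcodes, 4 libraries pooled; a list at 0 UMIs has no point. The erythroid lists stand together to the right in both haemoglobin-dominated kinds, and nuclear RNA is lowest in members.

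Markers of other blood cells were present at low levels, apart from the granulocyte list. The platelet list had 2 UMIs in all members, with 4 of its 6 genes at 0. The B cell list had 1819.9 CPM in the isotype control (15 UMIs), 945 CPM in anti-CD20 (21 UMIs), 404 CPM in anti-CD27 (4 UMIs) and 0 UMIs in the combination (allowing up to 230.7 CPM), where all other barcodes had 20.04 CPM. The granulocyte list, with S100a8 and S100a9 in front, had 2669, 1799.6, 7074 and 7843 CPM in members against 9344, 4864, 34747 and 36191 CPM in all other barcodes of the same libraries. Both lists were thus high in members in the libraries where they were high elsewhere. The T cell list lay between 231 and 405 CPM, and 3 of its 6 genes were called lower than in low-gene barcodes with less haemoglobin. The macrophage and monocyte list (44 UMIs) and the NK cell list (12 UMIs) had no called gene.

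The barcodes nearest in kind were those with at least 50% haemoglobin and 300 or more genes. Anti-CD27 alone held 5 of them, and the comparison was made within that library, with 63 members and 5 deeper barcodes. Of 85 genes with at least 20 UMIs, 38 were at least 2-fold higher in members (44.7%) and 11 at least 2-fold lower (12.9%). On the scale of all UMIs, haemoglobin included, this split turned to 7 higher and 31 lower, because haemoglobin took 86.9% of UMIs in these members and 67.2% in the deeper barcodes. That scaling moved every log2 ratio by -1.33.

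Relative to the other UMIs and leaving out mitochondrial genes, the largest excess in members was that of Ghitm, a mitochondrial inner membrane protein (31 against 1 UMI, log2 ratio 3.85), Oaz1, an inhibitor of polyamine synthesis (2.90), Fam220a (2.74), Sytl5 (2.65) and Bnip3l (2.58). Hbb-bh1 (2.24), Alas2 (1.76) and Pabpc1 (1.33) were also higher. Lower in members were S100a8 (-3.18), S100a9 (-3.13), Tmcc2 (-2.69), Malat1 (-2.63) and Cd74 (-2.10). Of these Malat1 is nuclear, Tmcc2 erythroid, and S100a8, S100a9 and Cd74 belong to other blood cells. Slc4a1 was lower as well (-1.10). These values rest on 5 deeper barcodes with 4611 other UMIs. Of the 111 S100a8 and 123 S100a9 UMIs in the 11 deeper barcodes of all libraries, these 5 held 110 and 118. The lower values of S100a8 and S100a9 in members thus rest on this library.

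Between treatments, the members were compared as sums of UMIs per library, in the combination against anti-CD20 and in anti-CD27 against the isotype control. Both comparisons ask what was present in the library with anti-CD27 beside its partner without it, and they share no library. A gene with at least 20 UMIs in both libraries together was called where its CPM differed at least 2-fold and the exact interval of the ratio excluded no difference. In the combination against anti-CD20, 20 of 179 genes were called higher (11.2%) and 13 lower (7.26%). In anti-CD27 against the isotype control, 18 of 98 were called higher (18.4%) and 4 lower (4.08%). With TMM factors the first comparison gave 11 higher and 25 lower, since that scaling moved every log2 ratio by -0.34, and on the scale of all UMIs it gave 28 higher and 9 lower (0.21). For the second, all UMIs gave 29 higher and 3 lower (0.25), and TMM 19 and 4.

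Of 96 genes tested in both, 8 were called higher in both (Apol11b, Isg15, Gpx1, Car2, Blvrb, B2m, Trim10 and S100a9) and 2 lower in both (Cd74 and Ighm). None was called in opposite directions. These 10 were 30.3% of the genes called in the first comparison and 45.5% of those in the second. Of the called genes, 15 of 33 in the first and 21 of 22 in the second had enough UMIs to be tested in both. Apol11b, Isg15 and S100a9 kept both calls under each alternative run, while each of the other 7 lost a call in at least 1 comparison under at least 1 of them.

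Apol11b, a member of the apolipoprotein L family on chromosome 15 (77633946 to 77643286, minus strand), differed most among the genes of high counts. It had 13 UMIs in isotype control members (1577 CPM), 44 in anti-CD20 (1979.6 CPM), 83 in anti-CD27 (8387 CPM) and 210 in the combination (16148 CPM). Both libraries with anti-CD27 were above both without it. The log2 ratio was 3.03 in the combination against anti-CD20 (interval 2.55 to 3.53) and 2.41 in anti-CD27 against the isotype control (1.56 to 3.38). The UMIs came from 10, 19, 32 and 44 members. With each member thinned to 300 UMIs, leaving out 11 isotype control and 1 anti-CD20 members that had fewer, the expected share of members with at least 1 UMI was 3.42, 6.18, 25.1 and 33.9% (unthinned 9.33, 15.3, 50.8 and 60.3%). Apol11b was not particular to members: with the libraries pooled they had 6558 CPM, the haemoglobin-dominated barcodes with 300 or more genes 7111 CPM and those with 10% to 50% haemoglobin 1413 CPM. Lymphocyte-marker barcodes had 3.43 CPM.

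Isg15, a ubiquitin-like protein made in response to interferon (chromosome 4, 156199424 to 156200818, minus strand), followed the same order. It had 15 UMIs in the isotype control (1819.9 CPM), 66 in anti-CD20 (2969 CPM), 55 in anti-CD27 (5558 CPM) and 105 in the combination (8074 CPM). The log2 ratio was 1.44 in the combination against anti-CD20 (0.99 to 1.91) and 1.61 in anti-CD27 against the isotype control (0.77 to 2.54). After thinning, 6.45, 6.88, 16.7 and 16.3% of members had a UMI (unthinned 13.3, 22.6, 33.3 and 32.9%). All other barcodes of the libraries had 109.6, 92.6, 292 and 431 CPM, lower than the members throughout but higher in the same pair of libraries.

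The interferon-induced list as a whole was mixed. In members it stood at 13589, 17771, 23545 and 28912 CPM. Against low-gene barcodes with less haemoglobin 4 of 15 genes were called higher (Isg15, Ifit1, Rsad2 and Irf7), beside 5.24% of all genes compared. Between treatments 2 of 4 tested were called higher in the first comparison and 2 of 3 in the second, Isg15 and B2m each time. The shares called higher over all genes tested were 11.2% and 18.4%. The list's few tested genes had median log2 ratios of 0.79 and 1.02, beside 0.01 and 0.25 over all genes tested. Rsad2, an antiviral enzyme that was the most abundant gene of the list, had 8372, 10888, 7679.9 and 11303 CPM and log2 ratios of 0.05 (-0.25 to 0.36) and -0.12 (-0.61 to 0.37). It was thus abundant in every library and did not follow Isg15.

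Antioxidant and metabolic enzymes were the erythroid list with the most calls. In the combination against anti-CD20, 3 of 7 were called higher (Gpx1, Car2 and Blvrb), and in anti-CD27 against the isotype control 5 of 7 (these and Prdx2 and Nt5c3), none lower. Of all genes tested, 11.2% and 18.4% were called higher. The list's median log2 ratios were 0.73 and 1.28, beside 0.01 and 0.25 over all genes tested. All other barcodes of the libraries had 3245, 2488, 4246 and 5653 CPM of the list, again with anti-CD27 and the combination above the other 2. Gpx1 had 15651.5 CPM in the isotype control, 14622 in anti-CD20, 37995 in anti-CD27 and 30449.8 in the combination. Its log2 ratios were 1.06 (0.84 to 1.27) and 1.28 (0.99 to 1.58), the first being 0.72 with TMM factors and so under 2-fold. Car2 had 4489, 4319, 9499 and 9458 CPM. Prdx2, a peroxiredoxin abundant in red cells, had 1577, 3014, 5457 and 2691 CPM, with log2 ratios of -0.16 (-0.80 to 0.45) in the combination against anti-CD20 and 1.79 (0.90 to 2.79) in anti-CD27 against the isotype control. It thus differed in one pair of libraries without a call in the other, and the difference between the pairs was not tested.

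**Figure D4:**
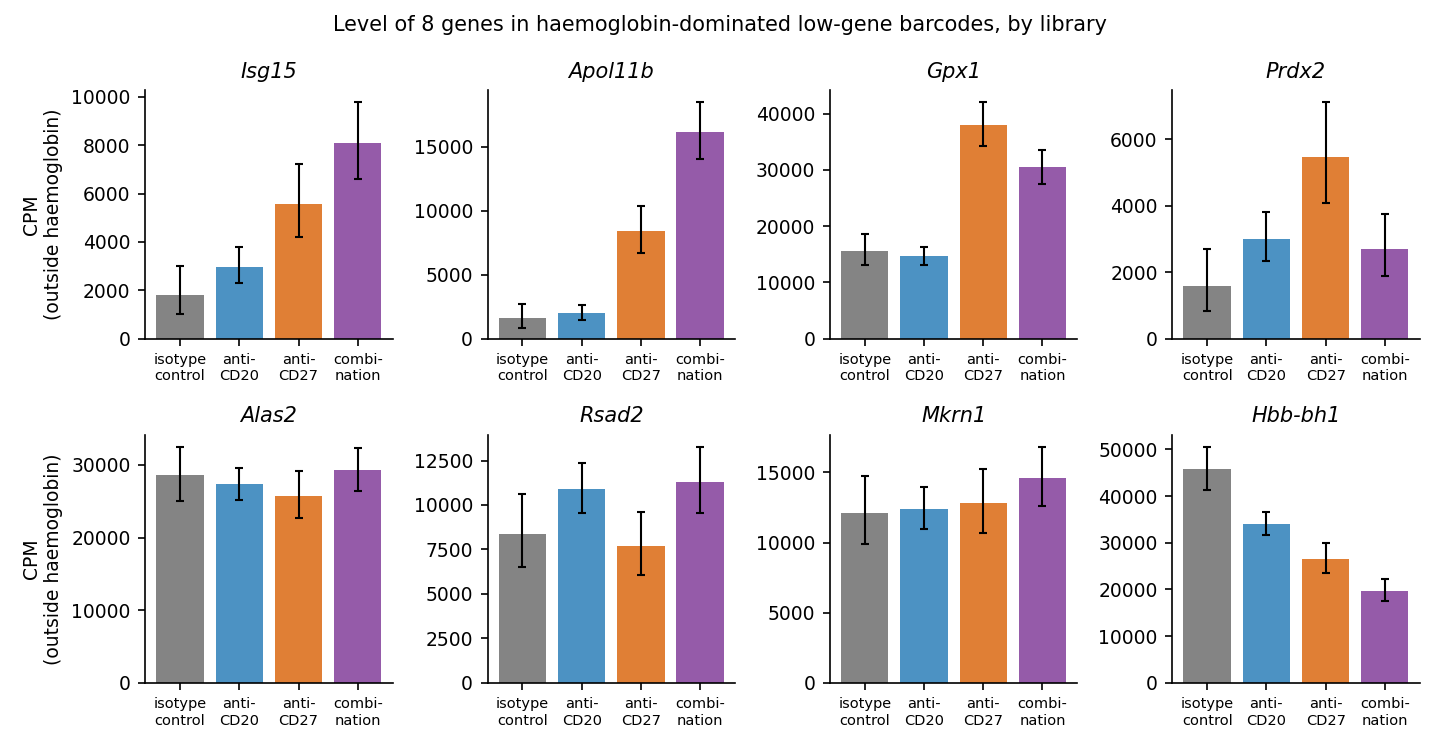
Levels of 8 genes in members of each library, as CPM of UMIs outside haemoglobin (y); bars are 1 library each and whiskers exact Poisson 95% intervals. The anti-CD27 and combination bars of Isg15, Apol11b and Gpx1 exceed the other 2, whereas those of Alas2 and Rsad2 do not do so together. Those of Mkrn1 do so by little and with overlapping whiskers (12833.5 and 14610 CPM against 12133 in the isotype control and 12372 in anti-CD20).

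No haem synthesis gene was called in either comparison (median log2 ratios 0.10 over 3 genes and 0.06 over 2), and Alas2 had ratios of 0.10 (-0.09 to 0.29) and -0.15 (-0.41 to 0.11). Of the clearance list 1 of 8 was called in the first comparison (Trim10) and 2 of 7 in the second (Trim10, 1.07, and Ubb, 1.20), beside 11.2% and 18.4% called higher over all genes tested. Glrx5 was called in the second pair (1.07) and not in the first (-0.07). Pabpc1, the leading gene outside haemoglobin and the mitochondrial genes, had ratios of -0.04 in both.

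Of the embryonic and theta globin list, 1 of 4 genes was called lower in the first comparison and 0 of 3 in either direction in the second, beside 7.26% and 4.08% of all genes tested called lower. Hbb-bh1 had log2 ratios of -0.78 in both, and Hbb-y had -0.92 and -0.66. In the combination against anti-CD20 these passed 2-fold with TMM factors (-1.12 and -1.26). The called gene was Hbb-bh2 (5 against 23 UMIs, -1.43), which lost its call under 5 of 9 alternatives. Hbq1b had ratios of -0.55 and -0.13, with intervals on both sides of 0. Hba-x, with 21 UMIs in all members and too few to be compared, had more CPM in the combination and anti-CD27 than in their partners.

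Apart from Prdx2 and Malat1, the remaining extremes were genes of other blood cells or of few UMIs. In anti-CD27 against the isotype control, Prdx2 had 54 against 13 UMIs and Malat1 27 against 51. In the combination against anti-CD20 the largest ratios were those of Gbp2b, an interferon-induced GTPase (17 against 3 UMIs, 3.28, 1.49 to 5.69), Apol11b, S100a9 (2.20), S100a8 (2.11) and Xpo7, a nuclear export factor of maturing red cells (20 against 8 UMIs, 2.10). The smallest, leaving out immunoglobulin, ribosomal protein and mitochondrial genes, were the antigen presentation genes H2-Ab1 (-3.23) and Cd74 (-3.13), Mir692-1 (-2.45), the translation factor Eif1 (-1.62) and Hbb-bh2. In anti-CD27 against the isotype control the largest were the chaperone Hsp90ab1 (20 against 3 UMIs, 2.47), Apol11b, S100a9 (2.01), Blvrb (1.82) and Prdx2, and the lower ones were H2-Aa (-2.11), Cd74 (-1.39) and Malat1 (-1.18).

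The genes S100a9 and Cd74 moved with the rest of each library. S100a9 had 728, 719.8, 2930.5 and 3306 CPM in members and 3075, 1783, 12198 and 13439.8 CPM in all other barcodes. Cd74 had 2912, 1349.7, 1112 and 154 CPM in members and 11851.5, 7901, 5923 and 2698 CPM elsewhere. Apol11b in all other barcodes had 1.80, 16.2, 55.4 and 131 CPM, the same order of libraries as in members, at levels far below theirs. The part of RNA from other cells in these values was not tested.

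**Figure D5:**
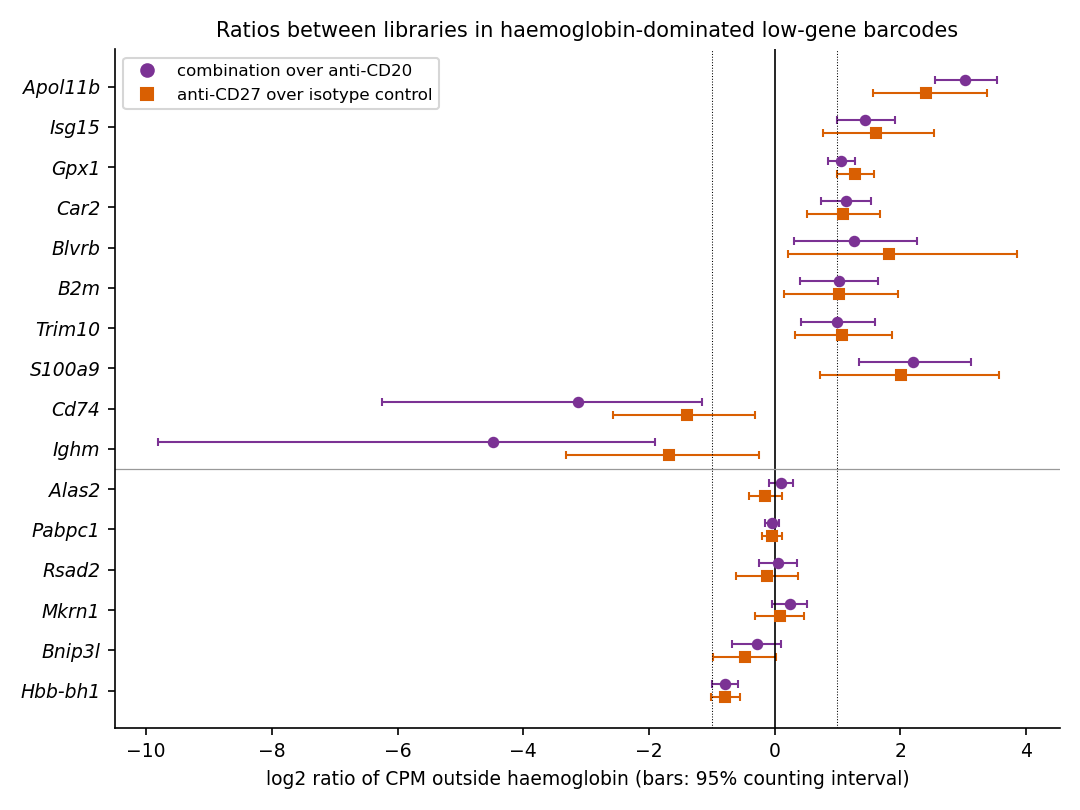
Log2 ratios of CPM outside haemoglobin (x) for the 10 genes called in both comparisons (above the line) and 6 abundant genes called in neither (below it), with exact 95% counting intervals; dotted lines mark 2-fold. Apol11b lies at 3.03 and 2.41, whereas Alas2, Pabpc1, Rsad2 and Mkrn1 lie near 0.

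Some of these levels also varied with the number of genes in a member. Gpx1 had 10663 CPM in members with fewer than 50 genes, 17037 CPM from 50 genes, 27169 CPM from 100 genes and 27338 CPM from 200 genes up. Isg15 had 1919, 2258, 6664 and 3446 CPM in the same classes, whereas Pabpc1 lay between 69263 and 75709 CPM and Alas2 between 24696 and 29832 CPM. Of the 86 isotype control members 38 had fewer than 50 genes, against 25 of 125 in anti-CD20, 10 of 63 in anti-CD27 and 24 of 73 in the combination. Over members with at least 50 and fewer than 200 genes, the log2 ratios were 4.04 and 2.34 for Apol11b, 1.80 and 1.65 for Isg15 and 1.30 and 1.15 for Gpx1 in the 2 comparisons. In that class 6 other calls were lost, those of B2m and Hbb-bh2 in the combination against anti-CD20 and of Blvrb, Car2, Malat1 and Trim10 in anti-CD27 against the isotype control. The part of gene number in the differences was not tested.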

How the data were processed

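The authors aligned Drop-seq reads to mm10 with STAR 2.5.0a, counted UMIs per gene and barcode with Drop-seq tools, and deposited the raw counts of 17252 genes in 3198 barcodes, with 637685 to 1565816 UMIs per library. Their limits on genes per cell would remove the barcodes described here. The barcodes and gene lists were chosen with earlier results of these data known. Of 181 list entries 179 matched. CPM were computed from the counts over UMIs outside the 4 haemoglobin genes. Counts are from transcript ends, so no length was divided out. With 1 library per treatment there was no test: shares have exact Clopper-Pearson, differences Newcombe, levels exact Poisson and ratios exact conditional intervals. Beside the haemoglobin genes, named genes were the 20 with most UMIs, the 5 largest and smallest ratios per comparison without immunoglobulin, ribosomal protein and mitochondrial genes, the 5 most abundant of each list and a few fixed markers; others were named where a count needed them. A few genes are not reported here. Doublets were not called. Code was tested on simulated data. Alternatives changed the limits, scaling (TMM, edgeR 4.0.16), count minimum and barcodes 1 base apart. Python 3.11.15, scipy 1.17.1 and R 4.3.3 were used; promoter sequences came from RefSeq (GRCm38.p6) and gene coordinates from GENCODE M21.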

Additional observations from a re-analysis of the deposited data

How the results depend on the processing

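Shares of members kept within their intervals when the haemoglobin limit was 30% or 70% and with fewer than 200 genes. They also did so without the shallower of barcodes 1 base apart, and with at least 100 UMIs. That minimum could remove no member, because the shallowest held 185 UMIs, and changed the base only. With low-gene barcodes as the base the difference of combination and anti-CD20 was -21.4 points, and that of anti-CD27 and isotype control was 3.09 points, reversed. With fewer than 200 genes the alpha share was 39.9% in anti-CD20 and 36.9% in the combination, just outside the counting intervals. With genes of at least 10 UMIs more genes were compared, and 63 were called in the combination against anti-CD20 in place of 33. Against deeper barcodes in anti-CD27, 22 genes passed in place of 49 with at least 50 UMIs, because fewer genes were compared. Chosen after seeing the data, the 4 libraries pooled gave 155, and barcodes with 10% to 50% haemoglobin, also pooled, gave 682. In both, more genes reached 20 UMIs and were compared, so these counts cannot be set against the 49. Of 467 values of single genes under alternatives, 428 kept their call, 37 lost it, 2 gained it and none reversed. Apol11b (2.23 to 4.04 over both comparisons) and Isg15 (1.11 to 1.86) kept theirs, while Gpx1 in the combination against anti-CD20 had 0.72 with TMM factors and B2m there had 0.32 as a mean over barcodes. Ighm without its top barcode had no UMI left in the combination and gave no value. No paired analysis was possible because each treatment has 1 library. No library could be left out for the same reason. Depth limits genes under 20 UMIs, and the isotype control members, with 8242 other UMIs, have the widest intervals.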

Other observations

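In the 27 barcodes with 300 or more genes and 10% to 50% haemoglobin, Hba-a1 took 66.0% of the alpha chain UMIs, against 54.8% in the 347 haemoglobin-dominated low-gene barcodes. By library the 27 barcodes had 73.6% in anti-CD27 (7 barcodes), 67.9% in the combination (13 barcodes), 57.0% in anti-CD20 (6 barcodes) and 59.2% in the isotype control (1 barcode). The cell cycle list stood at 21339.6 CPM in these barcodes and at 2061 CPM in the haemoglobin-dominated low-gene barcodes.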
